A study of Rattus norvegicus with 84 samples.

Results

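The dentate gyrus (DG) was compared with area CA3 of the same hippocampus in 12 rats. All were male F344 rats, an inbred strain, aged 5 months, and the labels give them no treatment, allele or other manipulation. Each rat gave 1 library of each subregion, so the comparison used 24 of the 84 libraries of the series. The libraries were chosen by the animal numbers in their titles, 3337 to 3342 and 3593 to 3598, and were paired by them. The subregions had been cut from the hippocampus of a single hemisphere of each animal, and the polyadenylated RNA of the whole piece was sequenced. A value is therefore an average over the principal neurons and all other cells of the piece, and fewer cells of a type cannot be told apart from less RNA per cell. The series also holds CA1 libraries, not used here, and DG and CA3 libraries of 16 male F344 rats aged 12 months, in which the same comparison was repeated.

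DG and CA3 are successive stations of the hippocampal circuit. The granule cells of DG receive input from the entorhinal cortex and send their axons, the mossy fibres, to the pyramidal cells of CA3, which also excite one another through recurrent collaterals. New granule cells are added to DG throughout life in rodents, and CA3 lies next to the fimbria, a myelinated tract, and the lateral ventricle with its ciliated ependyma and choroid plexus.

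The DG libraries held between 14988588 and 20426258 reads assigned to genes and the CA3 libraries between 16021080 and 21587138. Values are normalized read counts, that is, reads divided by a size factor for the library, after all 24 columns had been put on 1 scale. Of 15200 gene symbols found in both tables, 14494 reached a value of 10 in at least 12 libraries and were tested. The share of reads from mitochondrially encoded genes was 7.06% ± 2.64 in DG and 7.59% ± 1.56 in CA3 (SD, n = 12 rats), and the within-rat difference did not pass a 2-sided exact sign-flip permutation test (p = 0.437). In 2 DG libraries, of rats 3339 and 3342, that share was 12.1% and 12.6%, and the same libraries lay farthest from the DG mean over all genes. Without these 2 rats the within-rat difference was -1.34 percentage points instead of -0.53 and passed the test (exact permutation p = 0.00977), and 8096 genes were called in the comparison that follows. Both libraries of a rat come from the same animal, and the rats are separate animals.

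Most of the genes measured differed between the subregions, in similar numbers in both directions. With limma, fitted across all genes with the rat as a term, 8166 genes passed a Benjamini-Hochberg adjusted p of 0.05, which is 56.3% of those tested. Of these, 4050 (27.9% of tested genes) were higher in DG and 4116 (28.4%) in CA3, and the median log2 difference of DG minus CA3 over all tested genes was -0.01. Most differences were small. A called difference of at least 2-fold was found for 1075 genes (7.42%), 417 of them higher in DG (2.88%) and 658 higher in CA3 (4.54%). In 839 genes (5.79%) every DG library was above every CA3 library, and in 859 (5.93%) every CA3 library was above every DG library. The split depended on the common scale: with the values as deposited, 3030 genes were called higher in DG and 5398 in CA3, so that DG made up 36.0% of the calls instead of 49.6%, and the median difference moved by about 0.1. Log2 differences below are of DG minus CA3 on the scale of log2(value + 1), which understates the change of low genes, with the standard error of the fit, and adjusted p-values are from limma. Counts of list members below are to be read against the shares of all tested genes: 27.9% called higher in DG and 28.4% in CA3. For groups without overlap the shares were 5.79% with DG above and 5.93% with CA3 above.

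**Figure D1:**
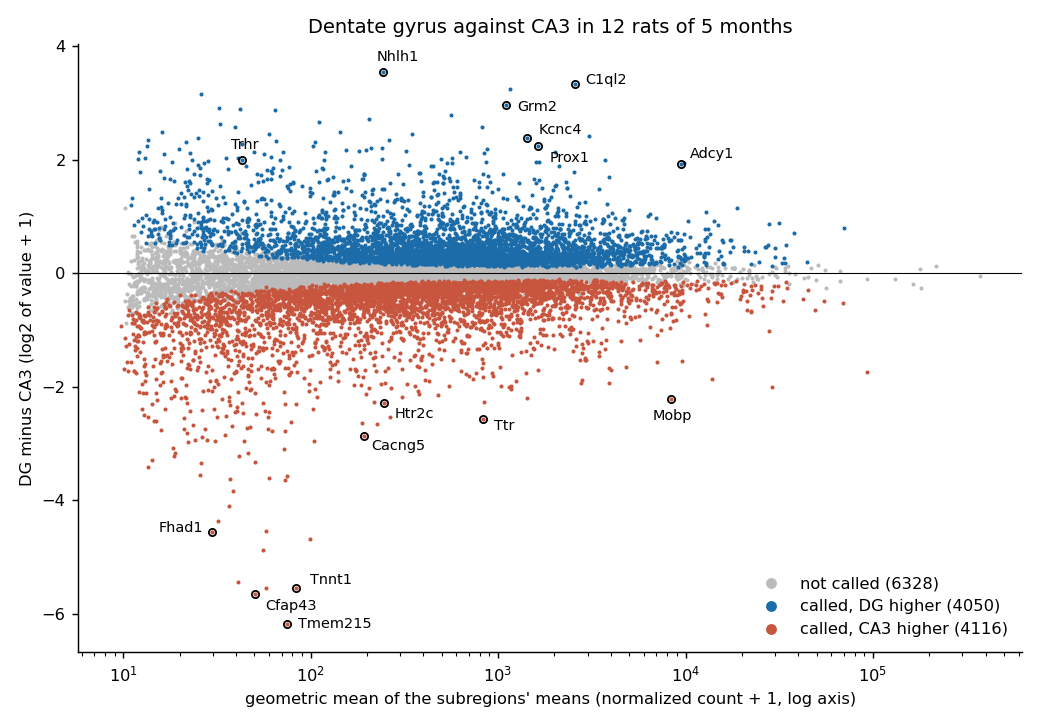
Log2 difference of DG minus CA3 (vertical axis) against the geometric mean of the subregions' mean normalized counts (horizontal log axis) for the 14494 tested genes, with called genes in blue (4050 higher in DG) and red (4116 higher in CA3) and some named genes circled. The 2 directions hold similar numbers of genes, and the largest differences, below -4, are on the CA3 side among genes with low values in DG.

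The 2 pieces carried the marker genes their labels call for. Of the 16 tested members of a list of 20 dentate granule cell markers, 14 were higher in DG, 13 of them by at least 2-fold, and the list's median log2 difference was 1.39. In the same 14 all DG libraries were above all CA3 libraries. C1ql2, a secreted C1q-like protein that granule cells place at mossy fibre synapses, had values between 5603 and 10057 in DG (median 8226) and between 378 and 1623 in CA3 (median 737). The CA3 libraries of rats 3338, 3598 and 3593 held the most, and the groups did not overlap. The fitted difference was 3.32 ± 0.16 (SE) (adjusted p = 9.03e-12). Prox1, the homeodomain factor that sets granule cell identity, ranged from 2856 to 4484 in DG, with a median of 3494, and from 545 to 1109.6 in CA3, with a median of 768. Its groups were also apart in every rat, with a difference of 2.24 ± 0.11 (adjusted p = 2.00e-11).

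Most other granule cell markers were higher in DG as well. Plk5, a polo-like kinase without mitotic function, had values between 577 and 2167 in DG (median 1647) and between 97.9 and 440.4 in CA3 (median 197). Its lowest DG values were those of rats 3339 and 3342, the rats with the high mitochondrial share, and the groups still did not overlap (difference 2.78 ± 0.20, adjusted p = 1.47e-09). Dsp, the desmosomal plaque protein desmoplakin, differed by 2.45 ± 0.13 and Trpc6, a calcium-permeable channel, by 1.76 ± 0.08. Calb1, the calcium buffer calbindin, had medians of 948 in DG and 379.6 in CA3 (difference 1.34 ± 0.10). Rfx3, Glis3, Dgat2, Sema5a and Maml2 were called as well and lay between 0.78 and 1.43. Npnt, nephronectin, had a difference of 0.23 ± 0.19 (adjusted p = 0.316). Stra6, a retinol transporter on the list, went the other way, with medians of 62.2 in DG and 80.8 in CA3 (difference -0.59 ± 0.16, adjusted p = 0.00438).

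The gene with the largest fold in DG was not on the marker list. Nhlh1, a basic helix-loop-helix factor of neuronal differentiation, had values between 576 and 1109.5 in DG (median 779.8) and between 28.0 and 128 in CA3 (median 69.8). The lowest DG library lay far above the highest CA3 library. The difference was 3.55 ± 0.16, or 11.7-fold (adjusted p = 7.06e-12), and between 2.16 and 4.68 in single rats.

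Pdyn, the precursor of the dynorphin peptides released by granule cells, ranged from 2497 to 4305 in DG, with a median of 3320.4, and from 203 to 608 in CA3, with a median of 364. It was higher in DG in every rat, by 9.41-fold on average (difference 3.23 ± 0.15, adjusted p = 6.36e-12). Among the 10 genes with the smallest p and a mean of at least 100 in DG were Igsf3 (an immunoglobulin superfamily membrane protein, difference 1.68), Rps6ka2 (the ribosomal S6 kinase RSK3, 1.46), Slc24a4 (a potassium-dependent sodium-calcium exchanger, 1.75), Nuak1 (an AMPK-related kinase, 1.29), Pak6 (a p21-activated kinase, 1.37) and Zdhhc22 (a palmitoyltransferase, 2.49). All 10 had groups that did not overlap, and their differences within single rats were small in spread: that of Igsf3 went from 1.41 to 1.98. A choice by smallest p favours both traits. Further genes of large fold in DG included junction proteins of epithelia. Cldn1, a tight junction claudin, had values between 79.5 and 246 in DG (median 173) and between 5.47 and 48.4 in CA3 (median 23.6), and Perp, a desmosomal membrane protein, had values between 358 and 787 in DG (median 473) and between 37.0 and 137 in CA3 (median 77.6). Both were apart in every rat, with differences of 2.87 ± 0.17 and 2.71 ± 0.15. The unnamed gene models AABR07060341.3 (2.89) and AABR07007717.3 (2.63) and Lnp1 (3.15) had values of at most 22.3 in the CA3 libraries. Olr1462, of the olfactory receptor family, differed by 2.91 ± 0.21, and since that family holds near-identical copies its value is uncertain.

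The promoters of the genes with the largest fold on either side are shown because both hold the same short motif, the E-box CAGATG to which factors of the NeuroD kind bind. They run from 250 bases before to 50 bases after the annotated start in the RefSeq table of build GRCr8, 5′ to 3′ on the gene's strand, with matches on either strand in capitals. The E-box was found in 16.6% of all 33469 promoters of the table. Tmem215, the gene with the largest fold in CA3 (its values follow below), holds it at positions -100 and -15 from the start and Nhlh1 at position -201. Dnah11, an axonemal dynein heavy chain that is high in CA3, holds it at -222, and at position 13 it holds a match to GTTGCC, a pair of any bases and GG in a row, part of the X-box of ciliary genes to which RFX factors bind, which 2.17% of all promoters hold. Of 6 Dnah11 entries the most upstream is shown. Dnah11 was not picked by fold, since Dnah6, Dnah1 and Dnah12 differed by more, and it stands for no other cilium gene. A match is a string of letters and no sign that a factor is bound there. Whether genes higher in either subregion, or cilium genes, hold these motifs more often than other genes was not tested.
Nhlh1, chr13:87054885-87055184, minus strand: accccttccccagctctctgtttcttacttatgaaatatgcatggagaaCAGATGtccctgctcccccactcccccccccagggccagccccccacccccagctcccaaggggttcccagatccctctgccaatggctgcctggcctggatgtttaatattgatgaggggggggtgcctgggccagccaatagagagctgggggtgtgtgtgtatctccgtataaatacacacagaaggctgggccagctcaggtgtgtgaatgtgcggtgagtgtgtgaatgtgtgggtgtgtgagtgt
Tmem215, chr5:60408337-60408636, plus strand: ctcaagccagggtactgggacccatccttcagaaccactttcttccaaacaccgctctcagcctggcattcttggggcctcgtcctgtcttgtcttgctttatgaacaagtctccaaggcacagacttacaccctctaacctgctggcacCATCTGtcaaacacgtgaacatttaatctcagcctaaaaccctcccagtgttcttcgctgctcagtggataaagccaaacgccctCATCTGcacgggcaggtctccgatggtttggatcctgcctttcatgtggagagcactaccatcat
Dnah11, chr6:145298474-145298773, minus strand: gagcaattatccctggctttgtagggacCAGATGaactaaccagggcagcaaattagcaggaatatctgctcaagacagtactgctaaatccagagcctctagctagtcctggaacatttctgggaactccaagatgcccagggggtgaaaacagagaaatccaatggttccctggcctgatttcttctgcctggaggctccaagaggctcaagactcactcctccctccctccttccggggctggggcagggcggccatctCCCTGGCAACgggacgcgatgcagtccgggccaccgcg

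The CA3 piece held the higher level of 13 of 15 tested CA3 pyramidal cell markers, of a list of 17, but by less than granule cell markers differed. The median of the list was -0.76 and 4 of the 13 reached 2-fold. Kcnq5, a subunit of the M-type potassium channel, ranged from 1727 to 2216 in DG, with a median of 1976, and from 4114 to 5149.7 in CA3, with a median of 4375. Its spread was small in both groups, and they did not overlap (difference -1.19 ± 0.05, adjusted p = 2.09e-12). Nectin3, an adhesion molecule of puncta adherentia at mossy fibre contacts, had values between 86.2 and 143 in DG (median 111) and between 234 and 382 in CA3 (median 297), again without overlap (difference -1.47 ± 0.09). Spock1, a matrix proteoglycan, differed by -1.16 ± 0.08 and Nnat, the proteolipid neuronatin, by -1.09 ± 0.12. Grik4, a kainate receptor subunit known from mossy fibre synapses, had overlapping groups, with values between 1921 and 2728 in DG (median 2259.9) and between 2564 and 3525 in CA3 (median 3066) (difference -0.45 ± 0.07, adjusted p = 1.00e-05). Cpne4, Plagl1, Npy2r, Socs2, Dkk3, Bok, Coch and Homer3 were the other called members, between -0.96 and -0.38.

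The other 2 members of the CA3 list were higher in DG. Trhr, the receptor for thyrotropin-releasing hormone, ranged from 53.3 to 119.9 in DG, with a median of 82.4, and from 12.0 to 31.6 in CA3, with a median of 21.6. Every DG library was above every CA3 library, and the level in DG was 3.99-fold that in CA3 (adjusted p = 7.63e-10), with a difference of 1.99 at 12 months. Cdh24, a cadherin, had overlapping groups and a difference of 0.39 ± 0.09.

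CA2 lies at the end of CA3 and the labels name no separate CA2 piece. Of 8 tested CA2 markers, 6 were higher in CA3 and 1 in DG (median -0.89). Cacng5, an auxiliary subunit of AMPA receptors, had values between 44.7 and 127 in DG (median 61.0) and between 363 and 635 in CA3 (median 511). No library of 1 group reached the other, and the level in CA3 was 7.26-fold that in DG (difference -2.86 ± 0.13, adjusted p = 6.28e-12). Amigo2 (adhesion, -1.46 ± 0.07), Stard5 (lipid transfer, -1.49 ± 0.14) and Rgs14 (a G-protein regulator, -1.06 ± 0.07) were likewise apart in every rat. Ntf3, the neurotrophin NT-3, was higher in DG by 1.46 ± 0.11. Hilar mossy cells sit within DG. Of 8 tested genes listed as their markers 6 were higher in CA3 and 2 in DG. Whether these genes mark mossy cells in the rat was not tested. Calb2, calretinin, had medians of 129.7 in DG and 313 in CA3 (difference -1.41 ± 0.15), while Ghsr, the ghrelin receptor, had medians of 216 in DG and 66.2 in CA3 (difference 1.65 ± 0.12) and Nmb, neuromedin B, differed by 1.18 ± 0.13.

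Markers of CA1 pyramidal cells varied widely within both subregions. Of 8 tested members 3 were higher in CA3 and 1 in DG, and the summed level went from 3771 to 21225 in DG and from 6836 to 19482 in CA3. Wfs1, named after its values were seen, made up much of that spread: the DG libraries of rats 3593, 3598 and 3337 held 12570, 10992 and 9018. Its own difference was -0.13 ± 0.22 (adjusted p = 0.637). Without these 3 rats 7477 genes were called, and still 14 of 16 granule cell markers were higher in DG and 13 of 15 CA3 markers in CA3. What these libraries contribute to other genes was not tested.

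**Figure D2:**
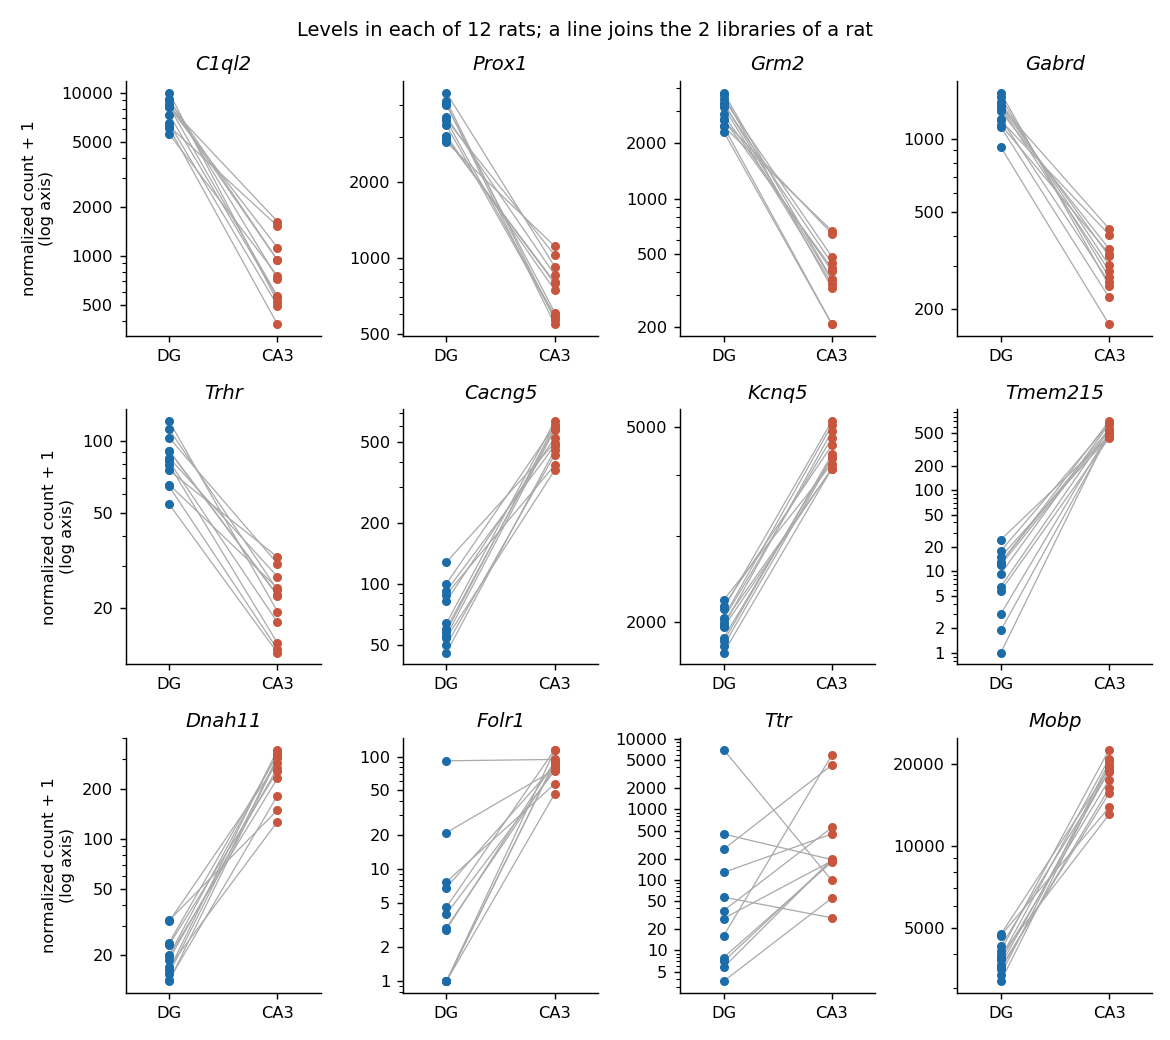
Normalized count + 1 (vertical log axes) of 12 named genes in DG (blue) and CA3 (red), with a line joining the 2 libraries of each rat. C1ql2, Prox1, Grm2, Gabrd and Trhr are higher in DG and Cacng5, Kcnq5, Tmem215, Dnah11 and Mobp higher in CA3 in all 12 rats without overlap, whereas Folr1 overlaps through 1 DG library and Ttr through several libraries of both groups.

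The largest folds of the whole comparison were on the CA3 side, among genes of motile cilia and their neighbours in the ranking. Tmem215, a membrane protein, had values between 0 and 23.6 in DG (median 9.70) and between 437 and 704 in CA3 (median 524). The DG library of rat 3341 was at 0 and none was above 23.6, so the level in CA3 was 72.8-fold higher on the log2(value + 1) scale (difference -6.19 ± 0.32, adjusted p = 2.30e-11). Cfap43, a protein of the axoneme, the microtubule core of motile cilia, ranged from 0 to 14.3 in DG, with a median of 6.29, and from 153 to 446 in CA3, with a median of 355 (difference -5.65 ± 0.27). Tnnt1, the slow skeletal muscle form of troponin T, ranged from 3.31 to 19.0 in DG, with a median of 10.1, and from 263 to 743 in CA3, with a median of 580.4 (difference -5.54 ± 0.23, adjusted p = 3.94e-12). In none of these did the groups overlap, and genes this low in DG passed the filter only through their CA3 libraries. Folds against such low DG values depend on the pseudocount: with 5 in place of 1 the difference of Tmem215 was -5.43 and that of Cfap43 -4.89.

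Most of the axonemal dynein heavy chains tested, the motors that bend motile cilia, were higher in CA3. Of 9 tested genes with a Dnah symbol 7 were higher in CA3 and 0 in DG, with a median of -2.78, and in 5 the groups did not overlap. The family was picked by symbol after its values were seen. A member low in DG, such as Dnah6, passed the filter of 10 in at least 12 libraries only through its CA3 libraries. The count describes these 9 genes and is no test of the family. Dnah6 had values between 0.997 and 13.3 in DG (median 5.80) and between 131 and 332 in CA3 (median 257) and Dnah11 had medians of 18.3 in DG and 275 in CA3. Differences were -5.44 ± 0.29 for Dnah6, -4.88 ± 0.28 for Dnah1, -4.67 ± 0.29 for Dnah12 and -3.64 ± 0.17 for Dnah11. Of 13 tested Cfap genes 8 were higher in CA3 and 2 in DG. Krt8, a keratin of simple epithelia, differed by -4.54 ± 0.26, Fhad1, a forkhead-associated domain protein, by -4.56 ± 0.16, and Spata18, a mitochondrial quality control protein, by -3.62 ± 0.37. Aurkb, the mitotic kinase Aurora B, had values between 0 and 39.6 in DG (median 7.40) and between 178 and 499.7 in CA3 (median 353) and so was among the largest differences too (-5.54 ± 0.32). Beside the 10 genes of smallest p in CA3, to which Tnnt1 and Fhad1 belong, 12 further ones with a mean of at least 50 were taken by the size of their fold, from Tmem215 to Spata18. For 8 of these 12 the 3 CA3 libraries with the lowest values were those of rats 3338, 3593 and 3598, the same 3 libraries that held the most C1ql2. These 3 also had the lowest summed myelin levels of the CA3 libraries (281230, 238634 and 231020). For Prox1 the 3 highest CA3 libraries were those of rats 3598, 3597 and 3338. What set these libraries apart was not tested.

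Markers of choroid plexus and ependyma moved in the same direction but unevenly. Of a list of 15 genes 10 were in both tables and 8 were tested, and 5 of the 8 were higher in CA3 and 1 in DG (median -1.94). Their summed level went from 72.8 to 7842 in DG and from 346 to 6551 in CA3, and no member was at 0 in all libraries. Ccdc153, a coiled-coil protein of ciliated cells, had groups that did not overlap, with values between 1.23 and 17.1 in DG (median 6.22) and between 70.1 and 212 in CA3 (median 155) (difference -4.10 ± 0.26). Folr1, a folate receptor of choroid plexus, ranged from 0 to 90.6 in DG, with a median of 2.48, and from 45.6 to 114 in CA3, with a median of 85.7. The DG library of rat 3596 was the highest and the only one within the CA3 range. Ttr, transthyretin, the main secreted protein of choroid plexus, had values between 2.65 and 7074 in DG (median 31.5) and between 28.1 and 5932 in CA3 (median 192). The high ones were the DG library of rat 3596 and the CA3 libraries of rats 3598 and 3341, and the groups overlapped over most of the CA3 range. Its difference passed the test (-2.58 ± 0.86, adjusted p = 0.0163). It no longer passed without rats 3337, 3593 and 3598 (-1.49, adjusted p = 0.183). These were the rats left out for their Wfs1 values, and only rat 3598 is among those with high Ttr. Without rats 3341, 3596 and 3598, which held the high Ttr values, 7 list members were tested. Of these, 5 were higher in CA3 and 1 in DG (median -2.73). Over all genes 7383 were called without these rats, 690 of them at least 2-fold higher in CA3. The part of ependymal or choroid RNA in the cilium genes was not tested.

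Oligodendrocyte genes were higher in CA3 throughout the list. All 16 myelin and oligodendrocyte markers were higher in CA3 by at least 2-fold without overlap, with a median of -1.93 and a range from -2.26 to -1.53. Mobp, a protein of compact myelin, ranged from 3167 to 4713 in DG, with a median of 3829, and from 13045 to 22616 in CA3, with a median of 18827. The lowest CA3 library held more than 2 times the highest DG library (difference -2.21 ± 0.08, adjusted p = 1.79e-12). Ugt8, the enzyme that makes myelin galactolipids, differed by -1.99 ± 0.08, Ermn, the myelin cytoskeleton protein ermin, by -2.26 ± 0.10, and Opalin, a membrane protein of myelinating cells, by -2.20 ± 0.10. Of 12 markers of oligodendrocyte precursors 10 were higher in CA3 and 0 in DG (median -0.80), among them Enpp6, of newly forming oligodendrocytes (-1.96 ± 0.13), and the lineage factors Olig2 (-1.33 ± 0.11) and Sox10 (-1.32 ± 0.08). The summed level of the myelin list went from 64200 to 102249 in DG and from 231020 to 380753 in CA3. Other genes with the smallest p in CA3 were Plekhh1 (-1.98), Tmem88b (-2.08), Cdr2 (-1.71) and P2rx6, an ATP-gated channel subunit (-2.62). How much of the difference in other genes came with oligodendrocyte RNA was not tested.

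**Figure D3:**
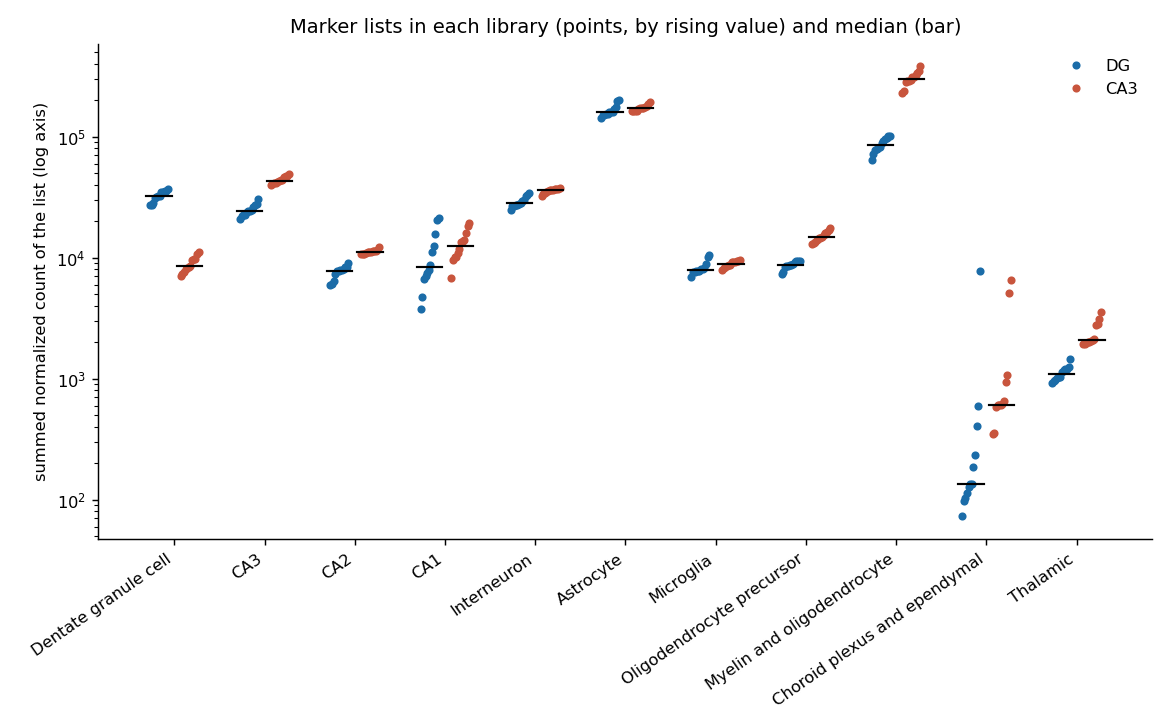
Summed normalized count of 11 marker lists (vertical log axis) in each DG (blue) and CA3 (red) library, with the median as a bar. Granule cell, CA3, CA2, myelin, precursor and thalamic lists separate the subregions, whereas CA1, astrocyte and microglia lists overlap and single libraries of either subregion stand far above the rest in the choroid plexus and ependymal list.

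Astrocytes, microglia and vessels differed less. Of 16 tested astrocyte markers 3 were higher in each subregion and 10 were not called (median -0.05), against 1 in DG and 7 in CA3 with the values as deposited and 0 and 4 in rats 3337 to 3342 alone. Aqp4, the water channel of astrocyte endfeet, was higher in CA3 (-0.60 ± 0.08) and Agt, angiotensinogen, in DG (0.42 ± 0.10). Of 16 microglia markers 0 were higher in DG and 7 in CA3, all by less than 2-fold, and Sall1, a microglial identity factor, was the member without overlap (-0.61 ± 0.06). Of 12 endothelial markers 1 was higher in DG and 4 in CA3 (0 and 7 with the values as deposited). Of 16 mural and meningeal genes 3 were higher in DG and 6 in CA3 (median -0.06). Lum and Dcn, matrix proteoglycans of fibroblasts, were higher in CA3 (-1.69 ± 0.18 and -1.05 ± 0.13) and Acta2, smooth muscle actin, in DG (0.63 ± 0.19). Interneuron markers leaned to CA3, with 10 of 21 higher there and 2 in DG, against 28.4% and 27.9% of all tested genes. Gad2, a GABA-synthesizing enzyme, had groups that did not overlap (-0.65 ± 0.07), as did Cnr1, the cannabinoid receptor of basket cell terminals (-0.77 ± 0.06), while Nos1, neuronal nitric oxide synthase, was higher in DG (0.76 ± 0.07). Of 8 thalamic markers 5 were higher in CA3 and 1 in DG, and the CA3 libraries of rats 3341 and 3597 held the most Zic1 and Prkcd (differences -1.73 ± 0.16 and -1.49 ± 0.21). Those genes are also expressed outside the thalamus, and their source was not tested.

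A list of genes of neurogenesis and immature neurons was not higher in DG as a group. It also holds genes that precursors, other neurons or glia express, and Eomes, found only in the CA3 table, was not compared. Whether the RNA of newborn neurons itself differed was not tested. Of 20 tested members 4 were higher in DG and 11 in CA3 (median -0.23). Neurod1, a factor of granule cell maturation, had values between 708 and 1154 in DG (median 915) and between 358 and 603 in CA3 (median 477) without overlap (difference 0.97 ± 0.09). Frzb, a secreted Wnt inhibitor, and Sstr2, a somatostatin receptor, were also higher in DG (1.37 ± 0.11 and 1.09 ± 0.10). Among those higher in CA3, Lpar1, a lysophosphatidic acid receptor found in adult-born precursors and in oligodendrocytes, had medians of 471 in DG and 1803 in CA3 (difference -1.81 ± 0.10). Elavl2, an RNA-binding protein of neurons, differed by -1.33 ± 0.07 and Nes, the filament protein nestin, by -0.84 ± 0.09.

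Glutamate receptor genes showed a few large differences among many small ones. Grm2, the presynaptic receptor mGluR2 of mossy fibres, ranged from 2311 to 3759.6 in DG, with a median of 3011, and from 207 to 668 in CA3, with a median of 384. The lowest DG library held more than 3 times the highest CA3 library, and the level in DG was 7.74-fold that in CA3 (difference 2.95 ± 0.13, adjusted p = 4.69e-12). Grm3, which glia also express, was higher in CA3 by -0.86 ± 0.11, without overlap. Grm8 was higher in DG (0.76 ± 0.19) and Grm6 in CA3 (-0.52 ± 0.12). Of 8 metabotropic receptors 3 were higher in DG and 2 in CA3. Among 13 tested genes of kainate receptors, Neto proteins and C1q-like ligands 5 went each way. Grik3 was higher in DG (1.02 ± 0.09), as was Grik5 (0.53 ± 0.08), whereas Neto1, an auxiliary subunit, ranged from 1161 to 1694 in DG, with a median of 1538, and from 2846 to 3666 in CA3, with a median of 3110.5 and was higher in CA3 without overlap (-1.10 ± 0.05, adjusted p = 1.48e-11). C1ql3, which like C1ql2 recruits kainate receptors to mossy fibre contacts, was higher in DG by 2.58 ± 0.12. Grik1 (-0.61) and Neto2 (-0.45) were higher in CA3.

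Subunits of the ionotropic receptors of fast transmission differed little by comparison. Of 6 NMDA receptor genes 3 were higher in DG and 1 in CA3 (2 and 2 with the values as deposited). Grin2c (0.52 ± 0.06) and Grin2b (0.33 ± 0.07) were higher in DG and Grin3a (-0.80 ± 0.16) in CA3, all with overlapping groups. Of 18 AMPA receptor genes 10 were higher in DG and 3 in CA3 (median 0.24). Gria1 differed by 0.43 ± 0.06, and the auxiliary subunits Cacng3 (0.97 ± 0.06, no overlap) and Cnih3 (1.28 ± 0.15) by more, while Cacng5, described above with CA2, was the largest difference in the other direction. Of 16 GABA receptor genes 6 were higher in DG and 4 in CA3, but 3 and 6 with the values as deposited. Gabrd, the delta subunit of extrasynaptic receptors that carry tonic inhibition in granule cells, had values between 929 and 1557 in DG (median 1325) and between 172 and 427 in CA3 (median 294). Every rat showed it higher in DG, by 4.36-fold (difference 2.13 ± 0.09, adjusted p = 3.94e-12). Gabra4, its usual partner, was higher in DG as well (0.75 ± 0.05, no overlap) and Gabra5, of pyramidal cell tonic receptors, in CA3 (-0.81 ± 0.06, no overlap).

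Potassium and HCN channels differed in both directions. Of 68 tested members 31 were higher in DG and 17 in CA3 (26 and 21 with the values as deposited), 11 and 3 of them by at least 2-fold. Kcnc4, the rapidly inactivating Kv3.4 of mossy fibre terminals, ranged from 2601 to 3858 in DG, with a median of 3278, and from 473 to 879 in CA3, with a median of 627. No CA3 library came near a DG library (difference 2.38 ± 0.09, adjusted p = 2.09e-12). Kcng1, a silent Kv subunit (1.96 ± 0.09), Kcnj4, an inward rectifier (1.96 ± 0.09), Kcnh4 (1.68 ± 0.10) and Kcnh3, an ether-a-go-go channel (1.49 ± 0.09), were also higher in DG without overlap. Kcna6, a Kv1 channel, ranged from 1492 to 2028 in DG, with a median of 1582, and from 2974 to 5279 in CA3, with a median of 4088 and so was higher in CA3 in every rat (-1.28 ± 0.06). Of 13 sodium channel genes 1 was higher in DG and 6 in CA3, led by the auxiliary subunit Scn4b (-0.71 ± 0.07) and by Scn3b (-0.45 ± 0.06). Of 15 calcium channel genes 5 went each way. The L-type Cacna1d (1.01 ± 0.10) and the T-type Cacna1h (0.98 ± 0.07) were higher in DG and the auxiliary Cacna2d3 (-0.74 ± 0.05) and Cacnb2 (-0.52 ± 0.05) in CA3, all 4 without overlap.

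Calcium handling beyond the channels was divided as well. Of 34 genes 15 were higher in DG and 12 in CA3, which turned to 13 and 15 with the values as deposited. Slc8a2 and Slc8a1, which encode related sodium-calcium exchangers, went opposite ways. Slc8a2 was higher in DG, with medians of 14459 in DG and 7034 in CA3 (difference 0.92 ± 0.07), and Slc8a1 in CA3, with medians of 600.4 in DG and 1536 in CA3 (difference -1.23 ± 0.09). Camk2g, a calmodulin-dependent kinase (0.61 ± 0.05), and Camkk1, a kinase of other such kinases (0.69 ± 0.06), were higher in DG and Hpca, the calcium sensor hippocalcin, in CA3 (-0.64 ± 0.07).

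The release machinery had no common side, with 17 of 50 genes higher in DG and 18 in CA3. Slc30a3, the transporter ZnT3 that loads zinc into mossy fibre vesicles, had values between 5885 and 8976 in DG (median 6730.3) and between 1606 and 3711 in CA3 (median 2001) (difference 1.70 ± 0.10, adjusted p = 1.55e-10). Stxbp6, amisyn, which binds SNARE proteins, differed by 1.59 ± 0.08 and Syn3, synapsin III, by 1.13 ± 0.09, both without overlap. The core fusion protein Snap25 and the calcium sensor Syt1 were higher in CA3 (-0.69 ± 0.06 and -0.65 ± 0.05), also without overlap. Among 27 neuropeptide genes 11 were higher in DG and 6 in CA3. Beside Pdyn, the precursors Penk (enkephalins, 1.52 ± 0.12) and Scg2 (secretogranin, 0.74 ± 0.07) were higher in DG. Cbln1, cerebellin 1, a synapse organizer, ranged from 172 to 330.2 in DG, with a median of 286, and from 27.2 to 64.3 in CA3, with a median of 45.0, a 6.33-fold difference. Its relative Cbln4 went the other way, with medians of 54.5 in DG and 150.4 in CA3 (difference -1.45 ± 0.14).

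Receptors for peptides and transmitters split by gene. Galr2, a galanin receptor, had values between 107 and 205 in DG (median 130.4) and between 16.4 and 51.2 in CA3 (median 25.2) (difference 2.33 ± 0.16), and no library of CA3 reached DG. Ghsr and Trhr were higher in DG as well. So was Nmbr, the neuromedin B receptor (1.62 ± 0.19), which is named here outside the rule for named genes. Of 30 genes 11 were higher in DG and 9 in CA3 (11 and 11 with the values as deposited). Tacr3, the neurokinin B receptor, ranged from 0 to 61.9 in DG, with a median of 7.75, and from 42.9 to 82.3 in CA3, with a median of 61.7 and was higher in CA3 (-2.96 ± 0.37). Its DG values in rats 3596 and 3598 reached the CA3 range. Among 34 monoamine, acetylcholine and opioid receptors 11 were higher in DG and 13 in CA3. Htr1a, the serotonin 1A receptor, had values between 793 and 1216 in DG (median 1044) and between 319.8 and 548 in CA3 (median 357) (difference 1.41 ± 0.09), and Adra2c, an alpha2 adrenergic receptor, differed by 1.58 ± 0.12, each without overlap. Htr2c, the serotonin 2C receptor, ranged from 35.1 to 413 in DG, with a median of 95.8, and from 313 to 673 in CA3, with a median of 455 (difference -2.29 ± 0.28). Rats 3596 and 3598 again had the highest DG values, and the DG library of rat 3596 lay within the CA3 range. Chrm2, the muscarinic M2 receptor, and Chrna2, a nicotinic subunit, were higher in CA3 (-1.69 ± 0.27 and -2.39 ± 0.25).

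**Figure D4:**
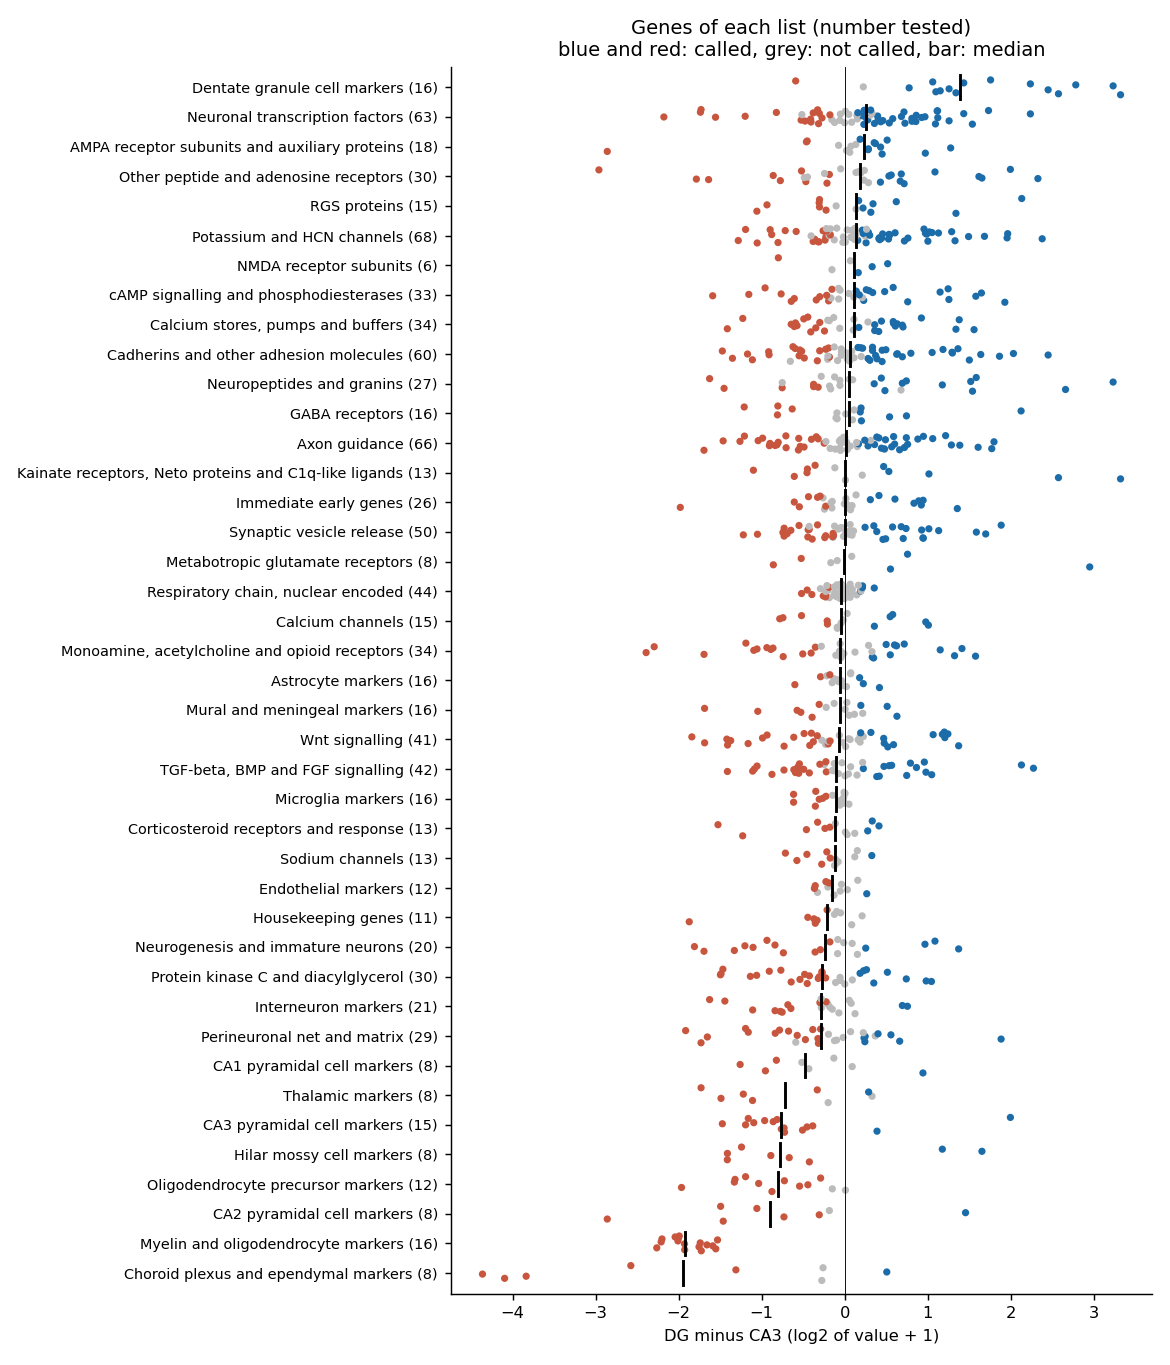
Log2 difference of DG minus CA3 (horizontal axis) of the tested members of 41 gene lists (rows, with the number tested), coloured where called, with the median of each list as a bar. The granule cell list lies to the right with a median of 1.39 and the myelin list to the left with a median of -1.93, while the channel, receptor and signalling lists spread to both sides of 0.

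Transcription factors were higher in DG more often than in CA3, in 33 against 16 of 63 tested genes (28 and 17 with the values as deposited). Beside Prox1 and Rfx3, the list held Bcl11b, the zinc-finger factor CTIP2, with values between 2968 and 4129.8 in DG (median 3296) and between 812 and 1651 in CA3 (median 1172) (difference 1.54 ± 0.08). Mef2c, a regulator of synapse number, differed by 1.12 ± 0.06. On the other side, Meis2, a homeodomain factor, ranged from 58.3 to 302 in DG, with a median of 124, and from 528 to 753 in CA3, with a median of 586 (difference -2.18 ± 0.20, adjusted p = 2.69e-08). Sox5 (-1.74 ± 0.10) and Neurod6, a factor of pyramidal neurons (-1.20 ± 0.08), were higher in CA3 in every rat. Immediate early genes, which neuronal activity induces, went both ways, with 8 of 26 higher in DG and 7 in CA3 (8 and 9 with the values as deposited). The counts of 8 and 7 were close to the shares of all tested genes (27.9% and 28.4%). Btg2 (1.36 ± 0.08), Jun (0.95 ± 0.07), Egr3 (0.92 ± 0.07) and Ier5 (0.89 ± 0.07) were higher in DG without overlap. Dusp5, a phosphatase of ERK, had values between 106 and 316 in DG (median 176) and between 582 and 864 in CA3 (median 684) and so was higher in CA3 (-1.98 ± 0.12).

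Molecules of wiring and adhesion differed in both directions. Of 66 axon guidance genes 26 were higher in DG and 21 in CA3 (24 and 26 with the values as deposited). Efnb3, a transmembrane ephrin, ranged from 3488 to 6272 in DG, with a median of 4525, and from 1062 to 1872 in CA3, with a median of 1357 (difference 1.77 ± 0.08, adjusted p = 4.69e-12), and the Eph receptor Epha8 differed by 1.61 ± 0.11. Ntng1, a netrin-G, was higher in DG too (1.39 ± 0.08), whereas the netrin receptor Unc5b (-1.21 ± 0.10), the semaphorin Sema3e (-1.04 ± 0.07) and the Slit receptor Robo1 (-0.80 ± 0.06) were higher in CA3. None of these overlapped. Among 60 cadherins and other adhesion molecules 26 were higher in DG and 17 in CA3 (23 and 22 with the values as deposited). Cdh13, a cadherin held by a lipid anchor, had values between 3184 and 5454 in DG (median 3947) and between 1212 and 1617 in CA3 (median 1372) (2.83-fold). The protocadherins Pcdh8 (1.37 ± 0.07) and Pcdh19 (1.19 ± 0.07) were higher in DG and Flrt2, a ligand of latrophilins, and the giant cadherin Fat3 in CA3 (-1.17 ± 0.12 and -0.91 ± 0.08). Matrix genes leaned to CA3, with 14 of 29 higher there and 7 in DG. Adamts4, a protease of perineuronal net proteoglycans that oligodendrocytes also express, differed by -1.73 ± 0.10, while Col6a1, a collagen VI chain, ranged from 366 to 1560.0 in DG, with a median of 905, and from 159 to 337 in CA3, with a median of 220.2 and was higher in DG (1.89 ± 0.14).

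Second messenger pathways divided by isoform. Adcy1, a calcium-stimulated adenylyl cyclase, ranged from 14770.4 to 23914 in DG, with a median of 18051, and from 3488 to 6604 in CA3, with a median of 4653. The groups were apart by more than 2-fold at their nearest (difference 1.93 ± 0.09, adjusted p = 8.69e-12). Pde1b, a calmodulin-stimulated phosphodiesterase (1.58 ± 0.09), and Pde7b (1.65 ± 0.12) were higher in DG. Pde1c (-1.59 ± 0.12), Pde4b (-1.15 ± 0.08) and the cAMP-activated exchange factor Rapgef4 (-0.96 ± 0.06) were higher in CA3. In all, 15 of 33 genes of cAMP signalling were higher in DG and 11 in CA3, or 12 and 15 with the values as deposited. Genes of protein kinase C and diacylglycerol leaned to CA3, with 17 of 30 higher there and 8 in DG (median -0.27). Prkca, protein kinase C alpha, ranged from 1299 to 2305 in DG, with a median of 1874, and from 4098 to 5710.3 in CA3, with a median of 4816 without overlap (difference -1.50 ± 0.07, adjusted p = 6.28e-12), and Rasgrp3, a diacylglycerol-activated exchange factor, differed by -1.47 ± 0.08. Dgki, a diacylglycerol kinase, was higher in DG (0.98 ± 0.07). Of 15 RGS proteins, which shorten G-protein signals, 7 were higher in DG and 6 in CA3 (4 and 7 with the values as deposited). Rgs9 had values between 179 and 385 in DG (median 237) and between 33.0 and 79.5 in CA3 (median 53.8) (difference 2.13 ± 0.14) and Rgs10 differed by 1.34 ± 0.11, both higher in DG.

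Growth factor and hormone pathways went both ways. Of 42 genes of TGF-beta, BMP and FGF signalling 14 were higher in DG and 17 in CA3. Smad3, the transducer of TGF-beta and activin signals, had values between 3474 and 4883 in DG (median 4172) and between 589.6 and 1351 in CA3 (median 921) (difference 2.13 ± 0.10, adjusted p = 6.36e-12). Its groups were far apart in every rat. Fst, the activin antagonist follistatin, was higher in DG as well (2.27 ± 0.22), and Fgfr2, a receptor that glia express, in CA3 (-1.09 ± 0.06). Of 41 Wnt genes 12 were higher in DG and 17 in CA3. Wnt4 (1.24 ± 0.09) and Rspo3 (1.21 ± 0.12) were higher in DG and Fzd10 (-1.41 ± 0.10), Nkd1 (-1.42 ± 0.09) and Rspo2 (-0.99 ± 0.06) in CA3. Of 13 corticosteroid response genes 3 were higher in DG and 6 in CA3, led by the kinase Sgk1, which had medians of 1635 in DG and 4316 in CA3 (difference -1.53 ± 0.14). Of 44 nuclear respiratory chain genes 4 were higher in DG and 7 in CA3, none by 2-fold, but these counts moved with the setting: 1 and 15 with the values as deposited, 1 and 13 with quantile normalization, 2 and 15 without rats 3339 and 3342, 8 and 3 in the first run of animal numbers (3337 to 3342) and 4 and 16 in the second. Of 11 housekeeping genes 0 were higher in DG and 6 in CA3 (median -0.21).

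The differences were largely found again in the 16 rats aged 12 months, which share no animal with the 12. There 9407 of 14535 genes (64.7%) were called. Of 8134 genes called at 5 months and tested at 12 months, 6703 (82.4%) were called in the same direction and 39 in the opposite one. Of 1059 such genes with at least 2-fold at 5 months, 1039 (98.1%) were called in the same direction and 0 in the opposite one. The difference of C1ql2 was 3.27, that of Nhlh1 3.47, that of Tmem215 -5.81 and that of Mobp -2.03 at 12 months. The within-rat difference itself was tested between the ages for 14509 genes, and 485 (3.34%) passed, 218 with a higher and 267 with a lower value of DG minus CA3 at 12 months. Without the pairing by rat 134 passed. Fut4, a fucosyltransferase, had differences of 1.71 at 5 months and 0.61 at 12 months, a change of -1.11 ± 0.14 (adjusted p = 4.89e-05). Magi2, a synaptic scaffold, changed by 0.35 ± 0.05 (adjusted p = 0.00103), and Jund, an AP-1 factor, by -0.49 ± 0.09 (adjusted p = 0.00456). None of the 12 genes per direction that were taken by the size of their fold was among the 485, but AABR07001734.1, whose mean was below 50, was: its difference was -3.30 at 5 months and -1.14 at 12 months.

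**Figure D5:**
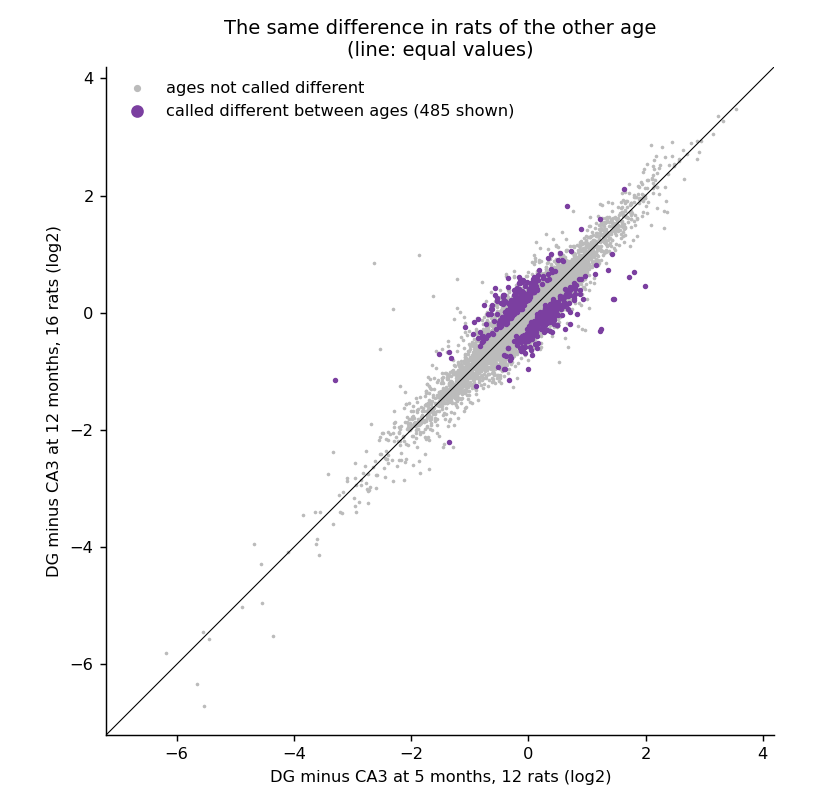
Log2 difference of DG minus CA3 in the 16 rats of 12 months (vertical axis) against that in the 12 rats of 5 months (horizontal axis) for 14391 genes tested at both ages, with the 485 genes whose difference was called different between the ages in purple. Most points lie along the line of equal values from below -6 to above 3, and the purple points lie mostly within 2 of 0.

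Within the 12 rats, the animal numbers form 2 runs, 3337 to 3342 and 3593 to 3598, which the labels do not call batches. With either run alone, of 6 rats, 5899 and 7406 genes were called, and 4464 genes were called in both runs in the same direction against 72 in opposite directions. C1ql2 differed by 3.58 and 3.07, Tmem215 by -6.26 and -6.11, and Mobp by -2.38 and -2.03 in the first and second run.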

How the data were processed

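The authors deposited a table of normalized counts per subregion: build rn6, STAR 2.5.3a, DESeq2 and Partek are listed in the submitters' processing notes. The deposited signal values were whole multiples of 1 value per library in 100% of values up to 1000 reads (tolerance 0.1), as reads divided by a size factor are. The strand setting of the counting is not given in the sources used here, so overlapping genes cannot be told apart.

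The 24 columns were rescaled together by median of ratios over 14846 symbols. Genes with at least 10 in at least 12 libraries were tested with limma 3.58.1 on log2(value + 1), with rat as a term, 2-sided, Benjamini-Hochberg threshold 0.05. Pairing comes from the animal numbers: same-rat deviations correlated at a median r of 0.0832 (-0.0684 to 0.22). With deviations taken within each run of animal numbers the median r was -0.0293, so these correlations do not bear out the pairing. At 12 months at least 16 of 32 libraries were needed, and between the ages at least 28 of 56. Alternatives included edgeR 4.0.16 and DESeq2 1.42.0 on the recovered reads, other scalings, filters and pseudocounts, and rats left out. Symbols in 1 table only were left out, 174 in DG and 506 in CA3.

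Members, the 41 gene lists and tests were chosen with earlier results of these data known. Named genes were, per direction, among called genes the 10 with the smallest p and a mean of at least 100, the 12 further ones with the largest fold and a mean of at least 50, up to 5 per list, all of the granule cell, CA3 and receptor lists, 6 for the age test, and the 5 highest symbols of either table alone. Some members of the lists are not reported here by name.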

Additional observations from a re-analysis of the deposited data

Results flagged for a closer look

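The within-rat difference of DG minus CA3 differed between the ages, by the test of that difference, for these named genes, given as the log2 value at 12 minus 5 months with its standard error. The genes with the smallest p among those with a higher value at 12 months were the gene model AABR07001734.1 (2.16 ± 0.28, adjusted p = 4.89e-05), Magi2 (0.35 ± 0.05), AABR07026797.1 (0.79 ± 0.14), Hecw1, a ubiquitin ligase (0.45 ± 0.08), Gsk3b, a kinase (0.45 ± 0.08), and Bcl7a, a chromatin remodelling subunit (0.48 ± 0.09, adjusted p = 0.00521). Those with a lower value were Fut4 (-1.11 ± 0.14, adjusted p = 4.89e-05), Mrpl14, a mitochondrial ribosomal protein (-0.52 ± 0.08), Nudt19, a hydrolase (-0.50 ± 0.08), Oaz1, a regulator of polyamine synthesis (-0.44 ± 0.08), Jund (-0.49 ± 0.09) and Tbkbp1, an adaptor of TBK1 (-0.48 ± 0.09, adjusted p = 0.00521).

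Of the listed genes, Fat4, a giant cadherin, was higher in DG at both ages, by 1.64 at 5 and 2.11 at 12 months (change 0.47 ± 0.13, adjusted p = 0.0456). Unc5d, a netrin receptor, went from 1.22 to 1.59 (change 0.38 ± 0.10, adjusted p = 0.0297). Gabra3, a GABA-A receptor subunit, went from 0.54 to 1.02 (change 0.48 ± 0.12, adjusted p = 0.0211). Cacna1e, the R-type calcium channel, was higher in CA3 at 5 months (-0.21) and had a difference of 0.19 at 12 months (change 0.39 ± 0.10, adjusted p = 0.0303). Without the pairing by rat none of these 4 passed, with adjusted p-values from 0.0506 to 0.091. The DG and CA3 libraries of a rat share the animal, and the ages are different animals.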

How the results depend on the processing

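The count of 8166 genes called at 5 months ranged from 7692 to 8193 when each rat was left out in turn, and other pseudocounts, filters, scalings and tools gave 7341 to 8428, with 8138 in edgeR and 8174 in DESeq2 on the recovered reads. Without the pairing by rat (no block) it was 8151. The block moved the number of genes whose difference changed with age more, from 485 to 134 without it, and the cause was not tested. With a minimum of 50 in at least 12 libraries, which tests fewer genes, 413 instead of 658 genes were at least 2-fold higher in CA3. The alternatives that leave out 2 or 3 rats together were chosen after seeing the data: without rats 3339 and 3342 the mitochondrial share differed by -1.34 percentage points (exact permutation p = 0.00977) and 8096 genes were called. Single genes changed sign where the difference was not called: Npnt was at -0.0608 in the first run alone, Wfs1 at 0.15 in the second run alone and between -0.226 and 0.0462 with 1 rat left out, and Hecw1 at -0.00461 with the values as deposited. AABR07026797.1, called at 5 months, was at 0.0178 in the first run alone, and it was not called without rat 3593, 3594, 3595, 3596 or 3597. Among called marker genes, Coch was not called in the first run alone (adjusted p = 0.335) or with quantile normalization (0.114), and Ttr not with robust moderation (0.0632) or in the second run alone (0.0534). Stra6 (0.0578), Cdh24 (0.129), Agt (0.0888), Grm8 (0.114) and Cacna1e (0.419) were not called in the first run alone, nor Grm6 (0.102), Neto2 (0.0862) and Acta2 (0.15) in the second. A pseudocount of 5 moved the fold of 12 named genes of low value by over 1.5 times toward 1: Lnp1 to 2.51, Folr1 to -3.16, Aurkb to -4.76, Fhad1 to -3.79, Spata18 to -2.94, Tacr3 to -2.28, Ccdc153 to -3.50, Dnah6 to -4.61, Dnah1 to -4.29, Cfap43 to -4.89, Tmem215 to -5.43 and AABR07001734.1 to -2.42.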

Other observations

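Symbols found in only 1 of the tables were not compared, since the other table gives them no value. The CA3 table alone held 506 symbols, 31 of them with a median of at least 50 in the CA3 libraries at 5 months, and the DG table alone held 174, none with a median of 50. The 5 highest in CA3 were Cfap44 (median 245, from 113 to 366), Ak7 (204), Ak9 (186), Wdr63 (170) and Cfap126 (155). Cfap44 and Cfap126 are axonemal proteins, Ak7 and Ak9 adenylate kinases and Wdr63 a dynein-associated protein, and 8 of the 31 have a Cfap, Dnah or Spag symbol. The share of such symbols over all symbols was not counted, so the 8 are a description only. The 5 highest in DG were AABR07060341.1 (47.3), RGD1564887 (44.0), Fam129c (21.0), Tfap2c (20.3) and Dpt (19.8), where AABR07060341.1 shares its contig name with AABR07060341.3, a gene model of large fold in DG.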
